A study of Mus musculus with 16 samples.

Results

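Protrusions and cell bodies of the HBB control line were compared across 12900 genes, in the 8 of the 16 samples of the series whose labels name this line. Both groups were NIH/3T3 cells, a fibroblast line from mouse, and carried a lentiviral construct in which human β-globin coding sequence is joined to the 3′UTR of the same gene (HBB), the control for a Pkp4 3′UTR. The construct was switched on by doxycycline, given at 1 μg/ml over 3 days. The serum-starved cells were plated for 2 h on filters with 3.0-μm pores, LPA was in the chamber under the filter for 1 h, and fixation was in 0.3% paraformaldehyde for 10 min. The 4 protrusion samples (Ps) came from material under the filter after the cell bodies had been wiped away, and the 4 cell-body samples (CB) from its upper side. More filters were pooled for a protrusion sample than for a cell-body sample, and the lines were selected with geneticin, with no cloning step described. The replicates are called independent by the study, but the labels do not say whether they came from separate cultures. The p-values therefore measure the spread between samples within groups, estimated over all 16 samples of the series, both lines included.

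A fibroblast that migrates pushes thin extensions through small pores toward an attractant such as lysophosphatidic acid (LPA), while the nucleus stays above the filter. Ribosomes, mitochondria, actin filaments and microtubules reach into these extensions. mRNAs for secreted and membrane proteins are translated on the endoplasmic reticulum (ER), much of which surrounds the nucleus, and some other mRNAs are carried along microtubules to the periphery.

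Values are log2 CPM, where CPM are the reads of a gene scaled to a common library size, and the log2 fold change, log2(FC), is protrusions over cell bodies from one limma-voom fit. It compares shares of the RNA of a sample, not amounts per cell, so that less of one RNA and more of the others cannot be told apart. A gene is called higher or lower at a Benjamini-Hochberg adjusted p under 0.05 over the 12900 genes, and, separately, enriched or depleted by the thresholds of the study, a fold change above 2 either way with an unadjusted p under 0.05, so that some enriched genes are not called higher. The samples held 20204097 to 31260831 counted reads, and 3 reads, the smallest level taken as detectable, were 0.089 to 0.163 CPM, a floor for counting error only. Of 17 fibroblast markers 13 were measured, and their summed level was 20029 to 21428 CPM in protrusions and 28249 to 32934 CPM in cell bodies. Epcam, Ptprc and Kdr, which define epithelial cells, leukocytes and endothelial cells, were not among the measured genes. The 3 measured epithelial markers summed to 159 to 192 CPM in protrusions and 155 to 173 CPM in cell bodies, nearly all of it Krt14 (log2(FC) 0.03), and the measured markers of leukocytes, endothelium, neurons and glia to less.

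Between protrusions and cell bodies, 3655 genes (28.3%) were higher and 3734 (28.9%) were lower, and most of these differences were small. The quartiles of log2(FC) over all genes were −0.37 and 0.41. Of the higher genes 1866 had a fold change under 1.5, and so had 1979 of the lower genes. The enriched genes were 586 (4.54%) and the depleted genes 516 (4.0%). All 4 protrusion samples lay above all 4 cell-body samples for 25.5% of the genes and below them for 26.8%. The balance of directions rests on the scaling of the libraries. When each library was scaled by its total reads instead, the median log2(FC) over all genes was −0.23, against 0.01. Then 1940 genes were higher and 5614 lower, so that higher calls made up 25.7% of the calls against 49.5%. In the Pkp4 cUTR line, which shares no sample with the HBB line, 28.2% of all genes were higher and 28.5% lower. There 3104 of the higher genes were higher as well (84.9% of them, and 85.4% of those of that line), and 3262 of the lower genes were lower (87.4% and 88.7%). For each gene both lines used a single estimate of the spread over all 16 samples, so these calls are not independent. No gene was called in opposite directions, and no gene differed in log2(FC) between the lines at an adjusted p under 0.05 from limma. For 300 of the 12900 genes the unadjusted p was under 0.05, fewer than that threshold gives by chance. By its own cutoffs, the study lists some protrusion-enriched RNAs as less enriched in the Pkp4 cUTR line.

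The genes at the upper end encode proteins of varied function. Cyb5r3, a membrane-bound cytochrome b5 reductase on chromosome 15 of GRCm38 (chr15:83153494-83172592), was at 11.93, 11.54, 12.34 and 11.79 log2 CPM in the protrusion samples and at 8.88, 8.80, 8.67 and 8.69 in the cell bodies. Cplx2, a complexin that binds the SNARE complexes of vesicle fusion, was at 5.05, 4.76, 5.40 and 5.08 against 2.76, 2.76, 2.77 and 2.46, a log2(FC) of 2.37 ± 0.13 (SE; adjusted p = 9.2e-10 from limma). Cenpb, a protein of centromeric chromatin, was at 10.47, 10.04, 10.73 and 10.22 against 8.12, 8.06, 7.99 and 8.05, a log2(FC) of 2.31 ± 0.12 (adjusted p = 6.4e-10 from limma). In each of these genes replicate 3 was the highest protrusion sample and replicate 2 the lowest, and the groups lay far apart. The kinesin Kif1c, a motor for transport toward microtubule plus ends, had a log2(FC) of 2.01, the dynein light chain Dynll2 one of 1.93, and the zinc finger protein Zbtb12 one of 1.95. Rab13, a vesicle-trafficking GTPase, Net1, a guanine nucleotide exchange factor, and Kank2, an adaptor at adhesions, had log2(FC) values of 2.36, 2.31 and 2.13, and 5730409E04Rik one of 2.38. The remaining places among the 12 highest genes above a mean log2 CPM of 3 were taken by both mitochondrial rRNAs.

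The genes at the lower end were varied as well. Gm26917, annotated as a long intergenic noncoding RNA (lincRNA) on chromosome 17 (chr17:39843013-39846341), was at 7.05, 7.59, 7.10 and 7.83 log2 CPM in protrusions and at 9.32, 9.03, 9.70 and 9.69 in cell bodies. Whether its reads come from another RNA of this region was not tested. Rsrp1, a gene of an arginine- and serine-rich protein, was at 4.10, 4.53, 3.73 and 3.95 against 6.20, 6.13, 6.15 and 5.94, a log2(FC) of −2.03 ± 0.13 (adjusted p = 2.4e-09 from limma). Malat1, a lincRNA of nuclear speckles (chr19:5795690-5802672), was at 3.85, 4.26, 3.28 and 3.75 against 6.05, 5.40, 5.96 and 5.15. Its cell-body samples fell into a higher pair, replicates 1 and 3, and a lower pair, yet every one of them exceeded every protrusion sample. Leng8 had a log2(FC) of −1.88, the collagens Col11a2 and Col4a5 −1.75 and −1.52, the death receptor Tnfrsf25 −1.70, Dennd6b, a regulator of Rab GTPases, −1.70, and the transporter Abcc10 −1.56. Irs2, an adaptor of the insulin receptor, had one of −1.54, with replicate 4 of the cell bodies at 4.47 against 5.19 to 5.23 in the other 3. The noncoding RNA 9430008C03Rik had one of −1.61 and PCDHGB6, a name that matched no gene of the annotation, one of −1.68.

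**Figure D1:**
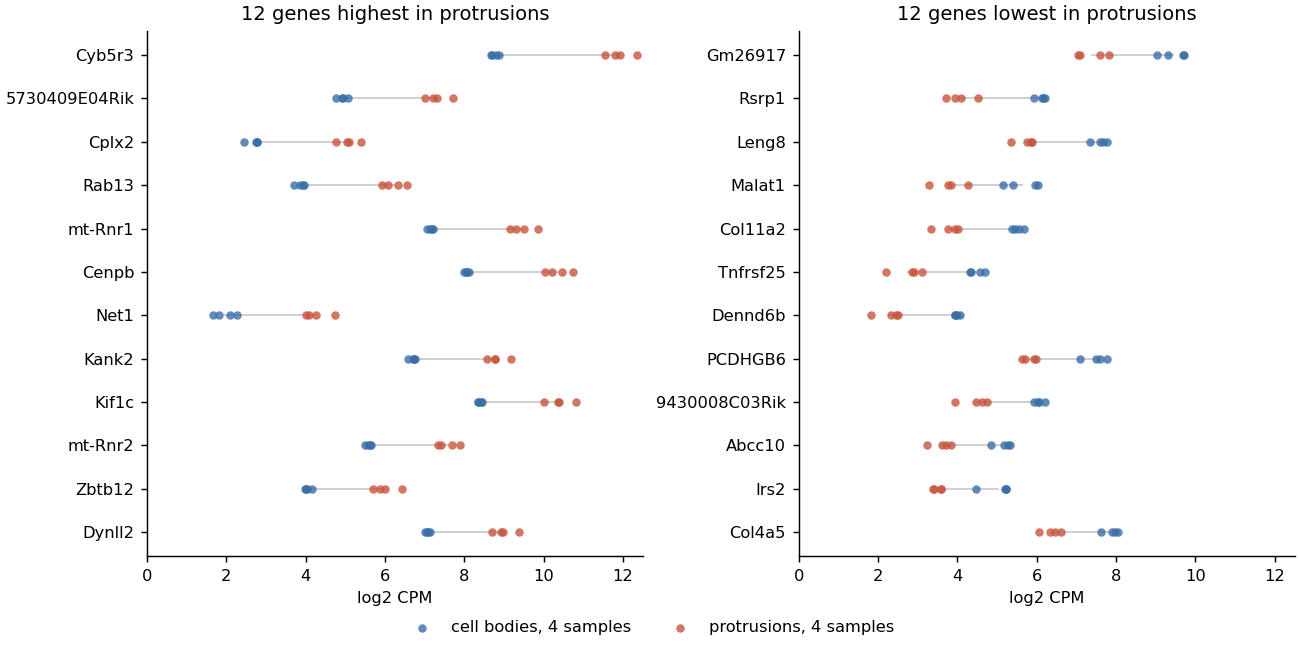
Level of the 12 genes with the highest (left) and the 12 with the lowest (right) log2 fold change among genes above a mean log2 CPM of 3, in log2 CPM. Each point is a sample, blue for the 4 cell-body and red for the 4 protrusion samples, the grey line joins the group means, and in none of these genes do the groups overlap.

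Transcripts of the translation machinery were the largest block in protrusions. All 31 proteins of the small ribosomal subunit and 46 of 47 of the large subunit were higher, and 57 of these 78 were enriched, against 28.3% and 4.54% of all genes. The median log2(FC) was 1.11, against 0.01 for all genes. Together they took 12.3% to 14.2% of the reads of a cell-body sample and 22.2% to 24.7% of those of a protrusion sample. Rpl21 had the highest value among members above a mean log2 CPM of 3, 1.49 ± 0.13 (adjusted p = 5.2e-08 from limma), and Rpl3 the lowest, 0.72 ± 0.09 (adjusted p = 3.5e-06 from limma). Quantile normalization, which forces one distribution on all samples, lowered the median to 0.53 and took Rpl3 to −0.01, no longer called. With the transcript length trend removed from each sample the median was 0.61, and 76 of the 78 were higher. Rplp0, the stalk protein with the most reads in the list, was at 13.49, 13.31, 13.69 and 13.47 log2 CPM in protrusions against 12.61, 12.52, 12.69 and 12.69. The one member not called was Rpl24, picked out after its value was seen, at a mean log2 CPM of 0.02 where the 78 genes had a median of 10.8. Near-identical processed copies share reads with these genes in a way that is not given in the sources used here.

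mRNAs of cytosolic ribosomal proteins start with a run of pyrimidines, the terminal oligopyrimidine tract, through which their translation is regulated. RefSeq start sites on GRCm38.p6 were therefore read from 10 bases before to 20 bases from the start, a window of 30 bases, for an unbroken run of at least 8 C or T on the strand of the transcript. Of the 57 ribosomal protein genes with a sequence, 24 (42.1%) held one, against 13.01% of the 27025 genes in the promoter table and 13.96% of the tested genes. The share was 15.2% for higher genes, 13.2% for lower genes, 12.9% for respiratory chain subunits and 27.03% (10 of 37) for matrix proteins. Shown are the 5 ribosomal protein genes with the highest log2(FC) among those with a run, the paralogue Rpl22l1, and the 3 matrix genes with the lowest log2(FC), with each run in capitals. The order is Rps24 (chr14:24490668-24490697, + strand), Rpl35 (chr2:39005112-39005141, − strand), Rps12 (chr10:23787190-23787219, − strand), Rps26 (chr10:128626487-128626516, − strand), Rpl34 (chr3:130730318-130730347, − strand), Rpl22l1 (chr3:28805498-28805527, + strand), Col5a3 (chr9:20815048-20815077, − strand), Col16a1 (chr4:130047830-130047859, + strand) and Col3a1 (chr1:45311528-45311557, + strand).
Rps24: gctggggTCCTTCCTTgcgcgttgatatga
Rpl35: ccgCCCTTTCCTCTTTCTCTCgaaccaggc
Rps12: tcatgcggccaccgccggCCTTTTCCCCTg
Rps26: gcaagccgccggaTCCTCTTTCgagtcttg
Rpl34: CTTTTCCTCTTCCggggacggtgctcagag
Rpl22l1: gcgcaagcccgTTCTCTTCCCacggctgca
Col5a3: cggccagggcggggtctcgggcagtctcca
Col16a1: ccagccccctggaaccgCCCTCTTCCCTCT
Col3a1: actgctgaggggatgggttctgctctcata
Rps24 has 2 starts in the table and Rpl34 as well, and the one with the longer run is shown. Col16a1, depleted in protrusions, also holds such a run. A run anywhere in the window was counted, so it need not begin at the annotated start, as the terminal tract does.

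Rps24, a small-subunit protein, was at 11.34, 11.27, 11.51 and 11.19 log2 CPM in protrusions and at 9.91, 9.78, 9.90 and 9.94 in cell bodies, a log2(FC) of 1.44 ± 0.15 (adjusted p = 3.2e-07 from limma). Rpl22l1, a paralogue of a large-subunit protein, was at 7.71, 7.75, 8.08 and 7.73 against 5.89, 6.14, 5.64 and 6.28, a log2(FC) of 1.83 ± 0.16 (adjusted p = 4.0e-08 from limma). Its spread was wider among the cell bodies, where replicate 4 was highest, than among the protrusions, where replicate 3 stood above the others. All 19 genes listed as elongation factors and other mRNAs known for such a start were higher, with a median of 0.80, although a run was found for 4 of the 13 with a sequence (30.8%). Npm1, a nucleolar chaperone of that list, had a log2(FC) of 1.38, whereas Eef2, the elongation factor with the most reads, had one of 0.28 ± 0.10 (adjusted p = 0.020 from limma), which turned to −0.09 under quantile normalization, not called. Of 40 initiation factors 28 were higher and 2 lower, or 19 and 5 with total reads. Eif3a, the largest subunit of eIF3, was higher at 1.43 and Eif4g1, the scaffold of the cap-binding complex, lower at −0.61.

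The rest of the translation apparatus was mixed. Aminoacyl-tRNA synthetases, which charge tRNAs, had 9 of 22 members higher (40.9%) and 4 lower (18.2%), beside 28.3% and 28.9% of all genes. Aimp1, a scaffold of the synthetase complex, was at 0.94 and the valyl-tRNA synthetase Vars at −0.37. Ribosome biogenesis factors, nuclear proteins that assemble ribosomes, had 24 of 49 higher (49.0%) and 9 lower (18.4%). Ncl, the nucleolar protein nucleolin, had a log2(FC) of 1.44, and Nat10, an RNA acetyltransferase, one of −0.69. The medians of both lists, 0.13 and 0.23, fell to −0.11 and −0.01 with total reads.

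mRNAs of mitochondrial proteins were higher by smaller amounts. Of 76 nuclear-encoded subunits of the respiratory chain 71 were higher and none lower (median log2(FC) 0.66), and of 76 mitochondrial ribosomal proteins 62 were higher and none lower, with a median of 0.44. With total reads 61 of the former were higher and 4 lower (median 0.42), and 36 of the latter higher and 4 lower (median 0.20). Uqcrb, a small subunit of complex III, was at 6.05, 6.02, 6.11 and 5.85 log2 CPM in protrusions against 4.77, 4.75, 4.65 and 4.77, and Uqcrc1, a core subunit of the same complex, at 8.23, 8.06, 8.22 and 8.15 against 8.18, 8.09, 8.23 and 8.37. The groups were apart for the former (log2(FC) 1.28 ± 0.13, adjusted p = 2.5e-07 from limma) and overlapped for the latter (−0.05 ± 0.08, adjusted p = 0.58 from limma). Cox7b, a small subunit of cytochrome oxidase, had a log2(FC) of 1.21, and Atp5b, the catalytic subunit of ATP synthase and the member with the most reads, one of 0.09, not called. In the mitochondrial ribosome the values ran between 1.27 for Mrpl42 and −0.08 for Mrps5 among members above a mean log2 CPM of 3. The median of the respiratory chain was 0.23 after the transcript length trend was removed from each sample, with 39 higher and 1 lower.

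Import, transport and matrix enzymes of mitochondria differed from one another. Of 21 subunits of the import complexes 15 were higher and 1 lower, or 11 and 4 with total reads, with Tomm7, a small subunit of the outer-membrane translocase, at 1.03 and the cytosolic cofactor Tomm34 at −0.18. The citric acid cycle had 14 of 21 enzymes higher and 1 lower, with Sucla2 at 1.02 and Ogdh at −0.24, but with total reads 4 were higher and 5 lower (median 0.04). The Slc25 carriers of the inner membrane had 11 of 36 members higher (30.6%) and 10 lower (27.8%), near the shares of all genes (28.3% and 28.9%). The ADP/ATP carrier Slc25a4 had a log2(FC) of 0.74 and the iron importer Slc25a37 one of −0.76.

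RNAs made inside mitochondria had high medians. Of the 11 mRNAs of the mitochondrial genome 8 were higher and none lower (median 1.16), and of the 7 measured rRNAs and tRNAs 5 were higher and none lower (median 1.22), beside 1.11 for the cytosolic ribosomal proteins. Their order against the latter turned with the setting, since on log2(CPM + 1) the medians were 0.90 and 0.84 against 1.11. The 12S rRNA mt-Rnr1 (chrM:70-1024) was at 9.30, 9.50, 9.87 and 9.15 log2 CPM in protrusions against 7.06, 7.20, 7.19 and 7.13, with a log2(FC) of 2.31 ± 0.13 (adjusted p = 8.7e-10 from limma). The 16S rRNA mt-Rnr2 had one of 1.99. The mRNAs were less uniform: mt-Nd1 had a log2(FC) of 1.47, mt-Co1, with the most reads, one of 1.04, and mt-Nd5 one of −0.38 ± 0.23 (adjusted p = 0.16 from limma). mt-Co1 was at 13.68, 13.70, 14.16 and 13.50 against 12.72, 12.92, 12.93 and 12.34, so that its lowest protrusion sample exceeded its highest cell-body sample by less than either group spread. Its call was lost under quantile normalization (0.47) and with the GC trend removed (0.48). With that trend removed, 5 of the 11 mRNAs were higher and 1 lower (median 0.57). The mRNAs of the mitochondrial genome had a median GC content of 37.1% against 50.7% for all genes.

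**Figure D2:**
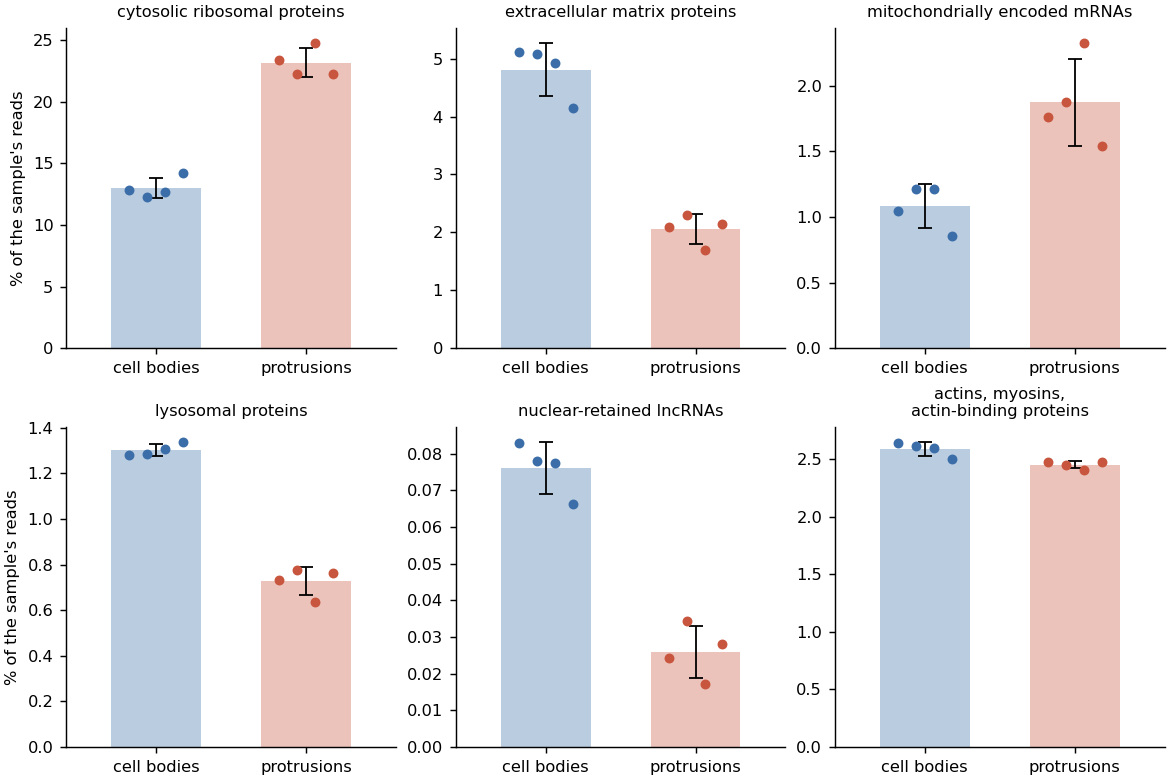
Share of the reads of a sample, in percent, that 6 gene lists took in the 4 cell-body (blue) and the 4 protrusion samples (red) of the HBB line. Most reads of the nuclear-retained list were Neat1. Bars are means, error bars are SD and points are samples; cytosolic ribosomal proteins took 12.3% to 14.2% in cell bodies and 22.2% to 24.7% in protrusions, and matrix proteins a mean of 4.81% and 2.06%.

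Genes of protein quality control in the cytosol were higher as well. Of 36 proteasome subunits 27 were higher and none lower (median 0.33), and with total reads 12 were higher and 3 lower (median 0.093). Psmc6, an ATPase, was at 1.21 and Psmb1, a core subunit and the one with the most reads, at 0.69. Of 13 chaperonin and prefoldin subunits, which fold actin and tubulin, 10 were higher and none lower (median 0.55), with Pfdn1 at 0.99 and Cct5 at 0.41. The COP9 signalosome, a regulator of ubiquitin ligases, had 5 of 9 subunits higher and 1 lower, with Cops2 at 1.43. Heat shock proteins were split. Hsp90aa1 was at 1.33, the stress-inducible Hspa1b at −0.38, and Hsp90ab1 at 0.51 ± 0.07 (adjusted p = 1.1e-05 from limma), which quantile normalization turned to −0.16, not called.

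Glycolytic enzymes of the cytosol differed little. Of 16 glycolytic enzymes 5 were higher (31.25%) and none lower, beside 28.3% and 28.9% of all genes. Their median of 0.11 turned negative with total reads (−0.13) and under quantile normalization (−0.09). Gapdh, a usual reference gene, was at 12.44, 12.20, 12.43 and 12.30 log2 CPM in protrusions and 11.81, 11.73, 11.78 and 11.68 in cell bodies, with no overlap, yet its log2(FC) of 0.59 turned to −0.16 under quantile normalization, not called. Cholesterol synthesis, an ER pathway, had 4 of 22 genes higher (18.2%) and 10 lower (45.5%). The prenyl synthase Fdps was at 0.37 and the sterol reductase Dhcr7 at −0.85. With total reads none of the 22 was higher and 12 were lower (median −0.40).

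mRNAs of proteins that enter the secretory pathway were lower in protrusions. Of 51 extracellular matrix proteins 39 were lower and 2 higher, and 24 were depleted, against 28.9% and 4.0% of all genes, with a median log2(FC) of −0.90. Col1a1, the main chain of collagen I and the list member with the most reads, was at 11.78, 11.81, 11.49 and 11.76 log2 CPM in protrusions and at 13.12, 13.01, 12.98 and 12.77 in cell bodies, a log2(FC) of −1.26 ± 0.13 (adjusted p = 2.6e-07 from limma). Col3a1, Col5a3 and Col16a1, whose starts are printed above, had log2(FC) values of −1.39, −1.49 and −1.49. Col16a1 was at 7.59, 7.61, 7.23 and 7.60 in protrusions and at 9.02, 8.96, 9.06 and 8.97 in cell bodies. The cell bodies were tight and only replicate 3 of the protrusions lay lower than its group.

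The exceptions in the matrix list were Bgn and Cyr61. Bgn, the small proteoglycan biglycan, was at 10.90, 10.82, 10.99 and 10.88 log2 CPM in protrusions against 10.57, 10.60, 10.65 and 10.41, a log2(FC) of 0.34 ± 0.10 (adjusted p = 0.0082 from limma) that became −0.34 under quantile normalization. Cyr61, a matricellular protein that is induced early by serum and LPA, was at 3.82, 3.28, 4.00 and 3.95 against 2.97, 2.34, 2.04 and 2.00, a log2(FC) of 1.41 ± 0.22 (adjusted p = 3.7e-05 from limma).

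The enzymes and receptors of the cell surface went the same way as the matrix. Of 27 matrix proteases and inhibitors 23 were lower and none higher (median −0.74). Mmp2, the gelatinase A, had a log2(FC) of −1.13, and Timp1, an inhibitor of such enzymes, was at 7.20, 6.98, 7.33 and 7.14 log2 CPM against 6.86, 6.87, 6.94 and 7.10, which overlap (adjusted p = 0.087 from limma). Of 27 integrins and other adhesion receptors 21 were lower and 1 higher. The fibronectin receptor chain Itga5 had a log2(FC) of −1.13 and the endocytic receptor Lrp1 one of −1.38, while Itgb1, the partner of Itga5, was at −0.12 ± 0.11 (adjusted p = 0.38 from limma). The one higher receptor was Ddr2, a collagen-binding kinase, at 7.25, 7.25, 7.45 and 7.16 against 6.47, 6.45, 6.23 and 6.06. Of 44 growth factor receptors 31 were lower and 3 higher, with Notch2 at −1.17, Axl at −0.69 and the growth hormone receptor Ghr at 0.55.

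Transporters and lysosomal proteins completed this side. Of 135 solute carriers outside the Slc25 family 95 were lower and 5 higher (median −0.63), among them the vitamin C transporter Slc23a2 at −1.22 and the nucleoside transporter Slc29a1 at −0.77. Of 39 lysosomal proteins 34 were lower and 1 higher (median −0.69). Psap, the precursor of the saposins, was at 10.12, 10.14, 9.87 and 10.12 log2 CPM in protrusions against 11.09, 11.03, 11.15 and 11.01, a log2(FC) of −1.01 ± 0.07 (adjusted p = 9.4e-09 from limma). The mannosidase Man2b1 had one of −1.26. Npc2, a small cholesterol-binding protein and the one higher member, was at 9.38, 9.28, 9.57 and 9.43 against 8.94, 8.92, 9.02 and 9.20.

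The ER itself was not uniform. Of 28 ER chaperones and folding enzymes 17 were lower and 1 higher (median −0.38), with the disulfide isomerases Pdia4 and P4hb at −1.08 and −0.43 and the membrane lectin chaperone Canx at 0.58. Of 24 genes of translocation into the ER, signal cleavage and N-glycosylation, 8 were higher (33.3%) and 10 lower (41.7%), or 5 and 14 with total reads. The higher ones included the small Sec61 subunits Sec61g (1.06) and Sec61b (0.77) and the small oligosaccharyltransferase subunit Ost4 (0.80), whose coding sequences have 204, 288 and 111 bases. The lower ones included the large oligosaccharyltransferase subunits Stt3a (−0.79), Rpn1 (−0.72) and Rpn2 (−0.68), with 2115, 1824 and 1893 coding bases. Rpn2 was at 8.76, 8.75, 8.59 and 8.72 log2 CPM in protrusions against 9.40, 9.36, 9.39 and 9.40. Sec61g was at 8.40, 8.30, 8.56 and 8.15 against 7.24, 7.31, 7.20 and 7.44, so that subunits of neighbouring complexes lay on opposite sides with no overlap in either. COPI and COPII coat genes had 8 of 26 higher and 8 lower (30.8% each), near the shares of all genes (28.3% and 28.9%). With total reads 2 were higher and 14 lower.

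**Figure D3:**
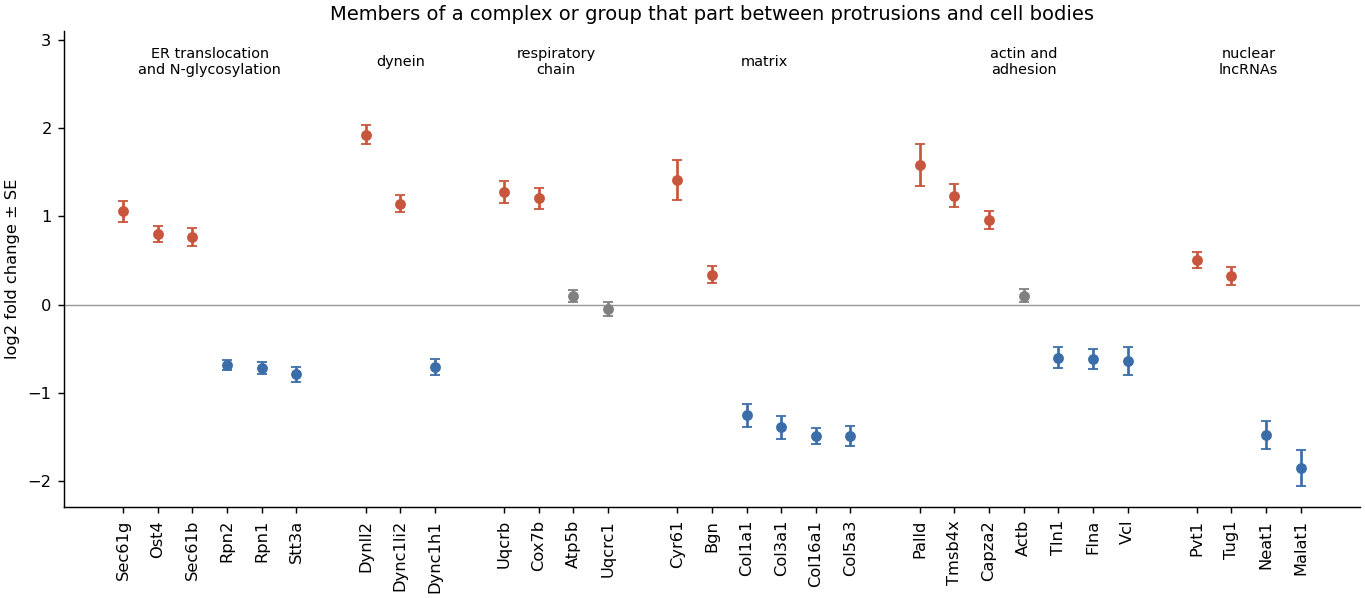
Log2 fold change of protrusions over cell bodies, with its standard error, for chosen members of 6 groups of genes whose values differed. The respiratory chain members shown were higher or not called, and none was lower. Red points were higher and blue points lower at an adjusted p under 0.05, and grey points were not called; in the ER group Sec61g, Ost4 and Sec61b were above 0 and Rpn2, Rpn1 and Stt3a below it.

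Features of the mRNA and its protein were set against log2(FC) over the 11349 protein-coding genes outside the mitochondrial genome. A hydrophobic stretch within the first 35 residues of the predicted protein, as signal peptides and some first membrane segments have, was found for 1774 genes. Of these 952 (53.7%) were lower and 219 (12.3%) higher, with a median log2(FC) of −0.38, while 27.4% of the 9575 other genes were lower and 31.02% higher, with a median of 0.02. Depleted genes held the stretch in 45.7% of cases and enriched genes in 6.76%. Most genes of the matrix list (88.2%) and the lysosomal list (87.2%) had it, against 2.56% of the cytosolic ribosomal proteins.

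Coding length and GC content also differed with log2(FC). The median coding length was 909 bases for higher genes, 1737 for lower genes and 1368 for all, and the median GC content of the transcript 47.1%, 54.0% and 50.8%. Spearman's rank correlation with log2(FC) across genes, which are not independent replicates, was −0.35 for coding length and −0.40 for GC, and −0.08 for the length of the 3′UTR. When the genes were split into 5 groups of nearly equal size by coding length, 56.4% of the shortest were higher and 16.5% of the longest. The order by length differed between 5 such groups of GC. Among genes of the lowest GC group the median was 0.50, 0.34, 0.30, 0.33 and 0.42 from the shortest to the longest coding sequences, while in the highest GC group it ran from 0.33 to −0.60. The hydrophobic stretch went with lower values in every length group, from 0.05 against 0.40 in the shortest to −0.74 against −0.20 in the longest. The part of library preparation in these values was not tested.

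**Figure D4:**
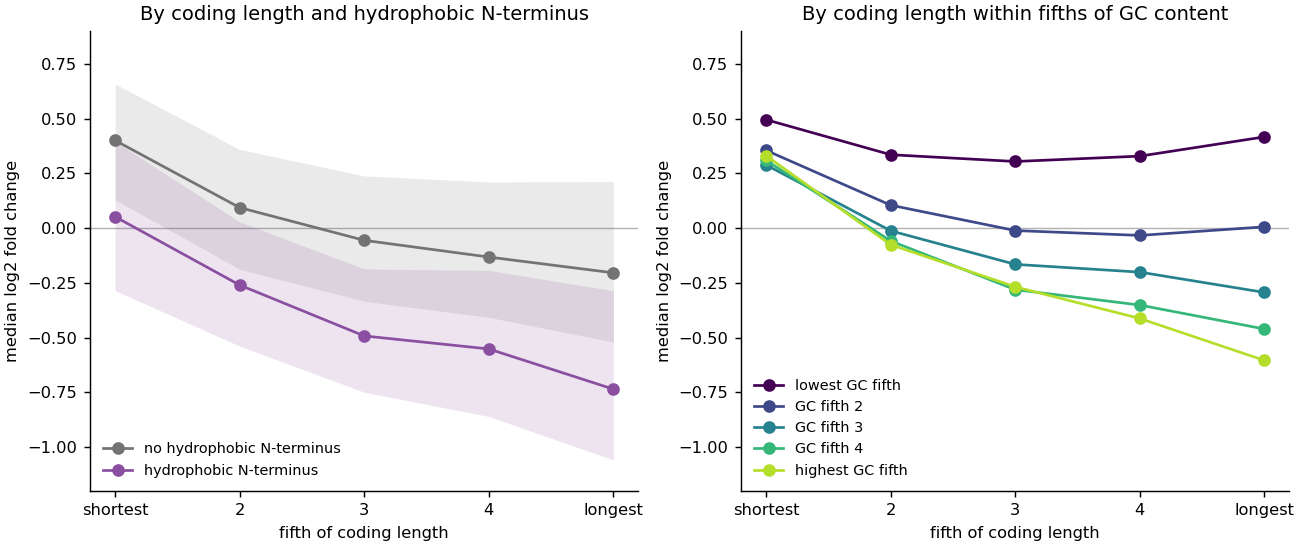
Median log2 fold change of protein-coding genes in 5 groups of coding length, on the left for genes with and without a hydrophobic N-terminus (shaded bands are the middle 50% of genes) and on the right within 5 groups of GC content. Genes with the stretch lie lower in all 5 groups, and with coding length the median goes from 0.33 down to −0.60 in the highest GC group, while in the lowest it is 0.50, 0.34, 0.30, 0.33 and 0.42.

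Genes of the cytoskeleton were not uniform. Of 81 actins, myosins and actin-binding proteins 46 were higher and 7 lower (median 0.33), but with total reads 20 were higher and 22 lower (median 0.09). Tmsb4x, which sequesters actin monomers, was at 8.55, 8.60, 8.82 and 8.57 log2 CPM in protrusions and at 7.41, 7.32, 7.32 and 7.56 in cell bodies, a log2(FC) of 1.23 ± 0.13 (adjusted p = 4.7e-07 from limma). Palld, an actin-bundling scaffold, had one of 1.58 and Capza2, a subunit of the capping protein, one of 0.96. The large cross-linker Flna was at 9.70, 9.60, 9.55 and 9.62 against 10.25, 10.25, 10.37 and 10.07, with a log2(FC) of −0.62 ± 0.11 (adjusted p = 1.7e-04 from limma). Actb itself was not called, at 0.10 ± 0.07 (adjusted p = 0.22 from limma), and quantile normalization gave −0.64, called lower. Of 33 focal adhesion proteins 9 were higher (27.3%) and 10 lower (30.3%), near the shares of all genes (28.3% and 28.9%). Talin (Tln1) had a log2(FC) of −0.61 and vinculin (Vcl) one of −0.64. With total reads 3 of the list were higher and 19 lower.

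Motor genes held large single values. Of 28 kinesin genes 7 were higher and 7 lower (25% each), near the shares of all genes (28.3% and 28.9%). With total reads 2 were higher and 12 lower. Kif1c was at 10.37, 10.02, 10.80 and 10.39 log2 CPM in protrusions against 8.42, 8.35, 8.45 and 8.35, and Kif5b, the conventional kinesin heavy chain, had a log2(FC) of 1.82 ± 0.18 (adjusted p = 1.7e-07 from limma). The family took 0.149% to 0.201% of the reads in protrusions and 0.0881% to 0.0974% in cell bodies, although its median log2(FC) was 0.01. Much of this share in protrusions was Kif1c, at a mean of 10.39 log2 CPM there, where the 28 genes had a median level of 3.25. Of 21 dynein and dynactin genes 16 were higher and 1 lower (median 0.38), but with total reads 6 were higher and 5 lower (median 0.15). Dynll2 was at 8.98, 8.70, 9.37 and 8.92 in protrusions and at most at 7.13 in cell bodies, and Dync1li2, a light intermediate chain, had a log2(FC) of 1.15. The lower one was the motor subunit Dync1h1, at 8.12, 8.08, 7.87 and 7.99 against 8.83, 8.75, 8.82 and 8.52. Tubulins, with 2 of 14 higher and 2 lower (14.3% each), held Tubb5 at −0.02.

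Small GTPases of vesicle traffic were mixed. Of 42 Rab genes 16 were higher (38.1%) and 6 lower (14.3%), beside 28.3% and 28.9% of all genes. Their median of 0.15 became −0.09 with total reads. Rab13 stood apart at 6.32, 6.08, 6.56 and 5.92 log2 CPM against 3.95, 3.93, 3.71 and 3.86, since the next Rab genes above a mean log2 CPM of 3 had log2(FC) values of 0.67 and less. Rab11a, of recycling endosomes, was at 0.61 and Rab36 at −0.73.

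Genes for nuclear proteins did not share one direction. Of 52 splicing factors 29 were higher and 10 lower, but with total reads 12 were higher and 14 lower, with the small spliceosomal protein Snrpg at 1.17 and the RNA-binding protein Hnrnpd at −0.72. Of 299 zinc finger genes 52 were higher and 115 lower, and of 119 chromatin modifiers 25 were higher and 42 lower, with the remodeller Smarca5 at 1.00 and the methyltransferase Kmt2d at −1.03. Nucleoporins had 2 of 22 higher and 11 lower. Tpr, of the nuclear basket, was higher at 0.92 and Pom121, which anchors the pore in the membrane, lower at −0.98. Of 10 histone variant genes 6 were higher (60%) and none lower, or 3 and 2 with total reads, with H3f3a at 0.61. The 56 cell cycle genes had 9 higher and 9 lower (16.1% each), or 4 and 19 with total reads. Among 47 immediate early and serum response genes 18 were lower (38.3%) and 5 higher (10.6%). The phosphatase Dusp1 was at −0.89 and the transcription factor Maff at 1.09.

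Noncoding RNAs differed by class. The 8 measured lincRNAs and other RNAs known for nuclear retention had 4 members higher and 3 lower, or 1 and 4 with total reads. Their summed level was 197 to 352 CPM in protrusions and 604 to 754 CPM in cell bodies. Most of this sum was Neat1, at a mean of 7.78 log2 CPM in protrusions and 9.26 in cell bodies. Neat1, the scaffold of paraspeckles, was at 7.74, 8.20, 7.22 and 7.94 log2 CPM against 9.36, 9.29, 9.30 and 9.09, a log2(FC) of −1.48 ± 0.16 (adjusted p = 4.6e-07 from limma). Pvt1 was at 3.86, 3.85, 4.08 and 3.91 against 3.42, 3.48, 3.37 and 3.38, and Tug1 had a log2(FC) of 0.33, which became −0.22 with the GC trend removed. Of 10 snoRNA host genes 7 were higher and 1 lower. Gas5, a noncoding RNA whose introns hold snoRNAs, was at 8.68, 8.63, 8.96 and 8.39 against 7.11, 6.91, 7.17 and 6.96, a log2(FC) of 1.63 ± 0.14 (adjusted p = 4.1e-08 from limma), while Snhg3 was lower at −0.95.

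By annotated class, beside 28.3% higher and 28.9% lower among all genes, 84 of 237 antisense RNAs (35.4%) were higher and 16 (6.75%) lower (median 0.33), 81 of 238 lincRNAs (34.03%) were higher and 20 (8.40%) lower (median 0.30), and 3189 of 11349 protein-coding genes were higher and 3574 lower (median −0.03). Of 40 snoRNA genes 25 were lower and 3 higher (median −1.10), at a low level (a median of −1.11 log2 CPM), and reads from introns of their hosts were not separated from them. Rn7sk, the 7SK RNA that controls transcription elongation, was at 1.27, 2.18, 2.78 and 2.63 log2 CPM in protrusions against 0.42, 0.03, 0.33 and 0.41, a log2(FC) of 1.90 ± 0.55 (adjusted p = 0.0066 from limma). Its protrusion samples spread widely, with replicate 1 nearest to the cell bodies. Snord104 was higher at 0.89. Of 682 pseudogenes 204 (29.9%) were higher and 23 (3.37%) lower (median 0.65). Antisense RNAs, lincRNAs and pseudogenes had median levels of 0.25, −0.15 and −0.18 log2 CPM, against 3.92 for all genes. Genes were kept if any sample passed the level cutoff. Low members may therefore have been kept only through the group where they were high, and their shares are not a result about the classes. Of the 100 genes named as copies of ribosomal protein genes, a list that overlaps this class but is not contained in it, 44 were higher and none lower (median 1.00), beside a median of 1.11 for the parent genes. Rps2-ps13, the copy with the most reads, was at 11.48, 11.38, 11.68 and 11.58 against 10.44, 10.37, 10.41 and 10.66. Reads of such copies cannot be told apart from those of their parents here.

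Lists that the study drew from another sequencing experiment on the same cell type were higher here as well. Of the 91 RNAs listed as dependent on the tumor suppressor APC for their localization 88 were measured, of which 70 were higher and none lower (median 1.08), and of 821 listed as independent of it 779 were measured, of which 579 were higher and none lower (median 1.03). All of these had been chosen for enrichment in protrusions in those samples, so their direction is not independent of the choice. Fibroblast markers showed both directions, since 8 of the 13 measured were lower, 4 of them collagens, and 2 were higher. The intermediate filament vimentin (Vim) was at 12.60, 12.58, 12.80 and 12.70 log2 CPM in protrusions against 12.09, 12.07, 12.16 and 12.16, and S100a4, a calcium-binding protein, had a log2(FC) of 0.52; under quantile normalization these turned to −0.13, not called, and −0.23, called lower.

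**Figure D5:**
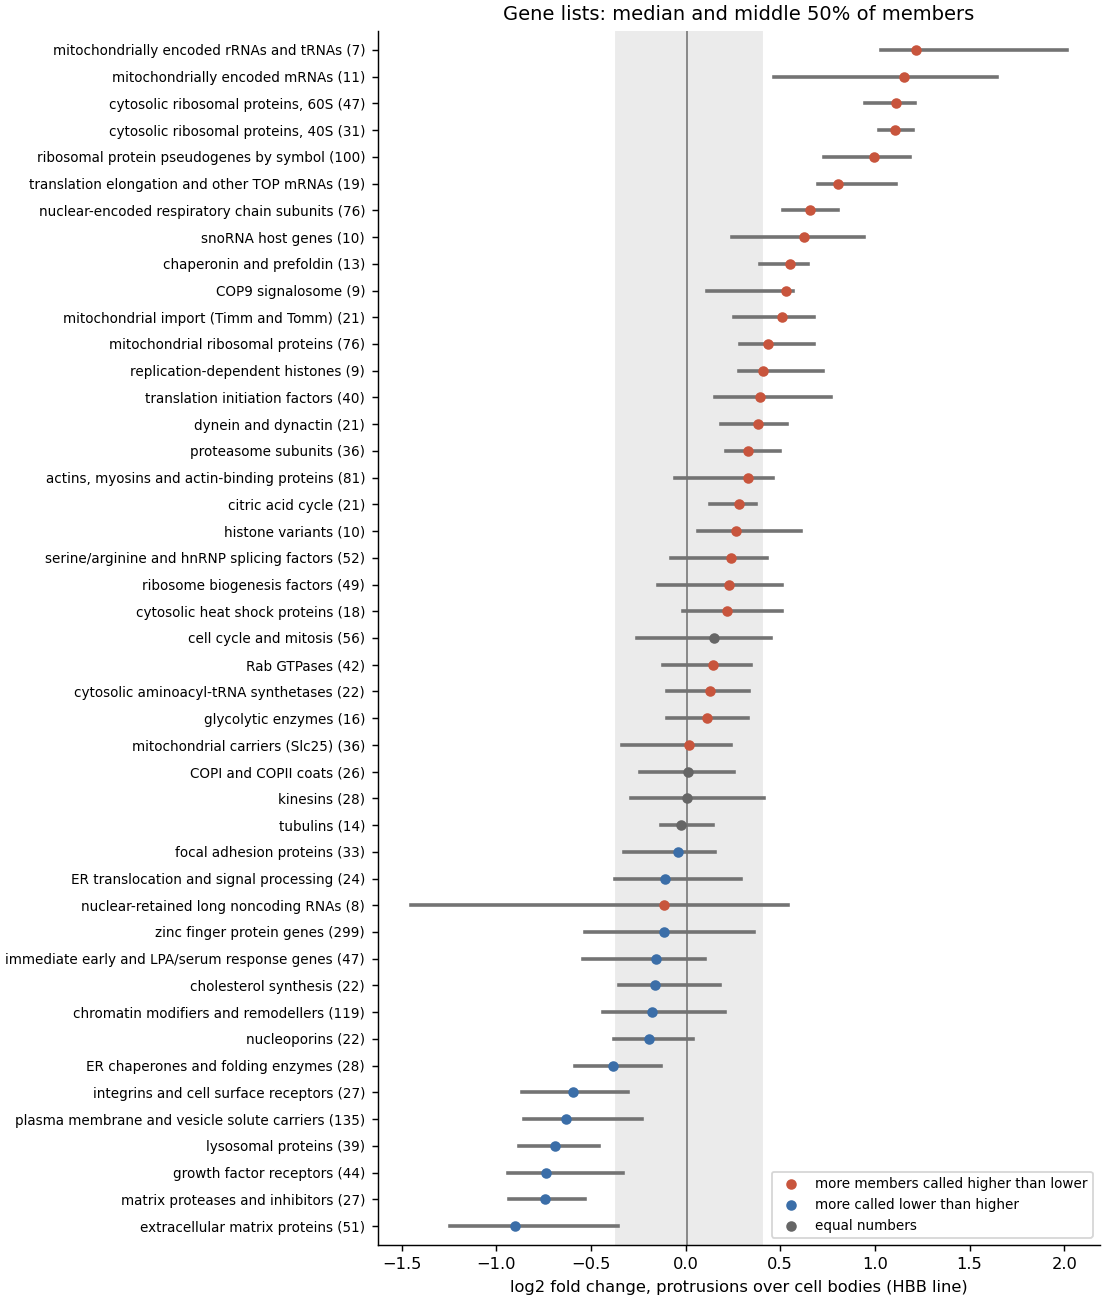
Median log2 fold change of protrusions over cell bodies in the HBB line for 45 gene lists, ordered by median, with the number of measured members in brackets. Points are medians, bars the middle 50% of members and the grey band that of all genes (−0.37 to 0.41); ribosomal and mitochondrially encoded RNAs stand at the top with medians above 1 and matrix proteins at the bottom with −0.90.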

How the data were processed

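RNA was sequenced as paired ends from 4 protrusion and 4 cell-body samples of the HBB line. The labels and the methods of the study name the library kit differently, as stranded total RNA and as stranded mRNA. The authors aligned reads with STAR 2.4.2a, counted them with Rsubread, left out genes low in every sample and deposited log2 CPM values from limma 3.26.1 (the submitters' processing notes name the STAR and limma versions). Whether counting used strand is not given in the sources used here.

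Each value was turned back into reads with the 0.5 reads that voom adds, and 100% came out whole within 0.01. limma-voom (limma 3.58.1, R 4.3.3) was fitted to these reads with the scaled library sizes of the authors, with 1 mean for each of the 4 groups over all 16 samples, and p-values were adjusted over 12900 genes. The script was tested on simulated data. Genes were matched to GENCODE vM21 on GRCm38 by symbol (12321) or older symbol (447), and 132 were not matched. A hydrophobic N-terminus is a mean Kyte-Doolittle value of at least 2.0 over 11 residues. Lists and classes are described by counts and medians, with no test. Members and lists were chosen with earlier results of these data known. Named genes were the 12 highest and 12 lowest above a mean log2 CPM of 3 whose groups did not overlap, and in each list up to 3 at either end, members opposite to the list, and the member with the most reads.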

Additional observations from a re-analysis of the deposited data

Results flagged for a closer look

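In 15 of the 256 sets of 4 samples formed by the named genes, 1 sample lay far from the other 3, where chance gives about 1 in 20. Replicate 4 of the cell bodies was the lowest of its group for Cplx2 (2.46 log2 CPM against 2.76 to 2.77), Irs2 (4.47 against 5.19 to 5.23), Pdia4 (6.57 against 6.81 to 6.84), Notch2 (6.58 against 7.12 to 7.15), Rab36 (4.24 against 4.54 to 4.57) and Kmt2d (6.28 against 6.69 to 6.73). The same sample was the highest for Hspa1b (5.38 against 5.24 to 5.25) and Sec61b (6.81 against 6.72 to 6.73). Replicate 3 of the protrusions was the lowest for Col1a1 (11.49 against 11.76 to 11.81), Col16a1 (7.23 against 7.59 to 7.61), Mmp2 (9.90 against 10.21 to 10.27) and Psap (9.87 against 10.12 to 10.14), and the highest for Rpl22l1 (8.08 against 7.71 to 7.75). Replicate 3 of the cell bodies was the highest for Slc25a37 (5.22 against 4.96 to 4.99) and Man2b1 (6.84 against 6.76 to 6.77).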

How the results depend on the processing

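Total reads as library sizes gave 1940 higher, 5614 lower, 242 enriched and 1145 depleted genes, and turned the medians of aminoacyl-tRNA synthetases (−0.11), ribosome biogenesis factors (−0.0101), heat shock proteins (−0.0217), glycolysis (−0.13), Rab genes (−0.0908), cell cycle genes (−0.0868) and other long noncoding RNAs (−0.0181). Quantile normalization turned glycolysis (−0.0948), Rpl3 (−0.0088), Eef2 (−0.0850), Hsp90ab1 (−0.16), Gapdh (−0.16), Bgn (−0.34), Vim (−0.13) and S100a4 (−0.23). On log2(CPM + 1) 264 genes were enriched and 200 depleted. With genes above a mean log2 CPM of 0.5 alone, 304 were depleted and the median of replication-dependent histones, 0.41, became −0.0344. The trend removals were added after seeing the data. Without the GC trend 324 genes were depleted, Tomm34 was at 0.0037 and Tug1 at −0.22. Without the length trend replication-dependent histones were at −0.12, other long noncoding RNAs at −0.00102 and S100a4 at −0.11. The cause was not tested.

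Leaving out 1 sample gave 3260 to 3617 higher, 3369 to 3848 lower, 500 to 702 enriched and 418 to 590 depleted genes, with 702 enriched without replicate 4 of the cell bodies. With a replicate block 3530 genes were higher, 3638 lower, 545 enriched and 495 depleted. Deviations of same-numbered samples correlated at 0.112, 0.389, 0.0455 and 0.164, and those of different-numbered samples at −0.504 to 0.436. Not every sample correlated best with its own number. With 4 samples in a group these correlations do not decide whether same-numbered samples were prepared together. Fits with edgeR and DESeq2 were not run.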
